A study of Homo sapiens with 36 samples.

Results

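The genes described here are 34 genes of homologous recombination and of the Fanconi anaemia pathway, taken as a list of names that was drawn up with earlier results of these data known. All probes carrying a member's current or older symbol in the platform annotation were collected, which gave 51 probes for 30 of the 34 genes out of 20024 genes with a probe. Of these 30 genes, 26 had a probe above background on at least 3 arrays and were tested among 12353 genes in all, and every count of members called is over those 26. RBBP8, BRCA2, FANCA and FANCD2 were not analysed here. RAD50 and FANCM were above background on 0 of 36 arrays, BRIP1 on 1 and FANCF on 2, and these 4 were not tested either. A gene counts as above background on an array when the detection p-value of its probe is below 0.01.

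The 36 samples are RNA of human prostate cancer cell lines, each hybridised to a one-colour Illumina BeadChip. The labels call DU145 radiation resistant and both PC-3 and 22Rv1 radiation sensitive. Cells grew in normoxia or for 24 h in hypoxia (0.2% oxygen), with solvent alone or for 24 h with 1 µM vorinostat, an inhibitor of histone deacetylases. For the normoxic solvent arrays no duration is recorded here. That makes 12 groups of 3 arrays: each of the 3 lines in normoxia with solvent, in normoxia with vorinostat, in hypoxia with solvent and in hypoxia with vorinostat. All RNA was taken before any irradiation, the titles write solvent where another label writes untreated, and each line is 1 established line and not a set of tumours. The labels do not say that the 3 arrays of a group come from separate cultures, so the p-values measure only the spread between these arrays, which may be technical. In cultured bulk RNA, a lower level in each cell and fewer cells carrying a transcript cannot be told apart.

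Homologous recombination repairs a DNA double-strand break by copying the intact sister chromatid, so it works mainly in cells that are replicating or have replicated their DNA. Break ends are sensed and trimmed to single strands, a recombinase is loaded on these strands with the help of the BRCA proteins, the filament invades the sister, and the joined molecules are separated again. The Fanconi anaemia proteins unhook crosslinks between DNA strands: a core complex attaches ubiquitin to a pair of clamp proteins, and the ubiquitin is later removed. Transcripts of many of these genes are known to rise with entry into DNA replication.

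The measured values behave as follows across the series. Between 30.1% and 35.71% of the probes of an array were above background, and arrays of the same group correlated at 0.98498 to 0.99525 over log2 values. Of 8 tested genes known to rise in low oxygen, 6 rose in hypoxic DU145 solvent arrays, 7 in PC-3 and 7 in 22Rv1. VEGFA, which encodes an angiogenic growth factor, rose in PC-3 (0.67 ± 0.19, log2 change ± SE) and 22Rv1 (1.80 ± 0.19) and had a change of 0.37 ± 0.19 in DU145 (adjusted p = 0.206, limma). CA9 was not analysed here. All 4 epithelial markers measured were above background on every array of all 3 lines. Of 4 prostate luminal markers measured, 0 were above background on all arrays of DU145, 2 on those of PC-3 and 3 on those of 22Rv1, and KLK3 was on none in any line. Of 8 markers of other cell types, 6 were above background on no array of DU145 and 22Rv1 and 3 on no array of PC-3, where 2, COL1A1 and PECAM1, were above it on all 12.

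Vorinostat lowered 21 of the 26 genes in 22Rv1, 12 in PC-3 and 11 in DU145, and raised 0, 0 and 4 of them. The change is the log2 level on the vorinostat arrays minus that on the solvent arrays of the same line, averaged over normoxia and hypoxia, and a call is a Benjamini-Hochberg adjusted p under 0.05 in limma over all 12353 genes. Among all genes tested in 22Rv1, 22.4% were called lower and 22.9% higher (45.3% in either direction). These shares were 19.7% and 19.8% in PC-3 (39.5%) and 24.7% and 27.9% in DU145 (52.6%). At both oxygen levels drug and solvent arrays lay apart for 18 members in 22Rv1, 5 in PC-3 and 10 in DU145, against 37.6%, 20.1% and 34.3% of all genes. The median change of the 26 was -0.71 in 22Rv1, -0.22 in PC-3 and -0.15 in DU145, against -0.0045, -0.0005 and 0.0076 over all genes. NBN, BRCA1, PALB2, RAD51AP1, RAD54L and USP1 fell in all 3 lines, as did 974 genes of the 12353. RAD51C, EME1, FANCL and UBE2T rose in DU145 and fell in 22Rv1, and 862 of all genes were called in opposite directions in at least 1 pair of lines. BARD1 and XRCC2 were called in no line, though BARD1 was called lower in 22Rv1 under 3 of 46 alternatives. The probes used for FANCC and GEN1 were not above background on any PC-3 array, nor that of FANCB on any 22Rv1 array. These genes enter the counts of those lines without a measured level.

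**Figure D1:**
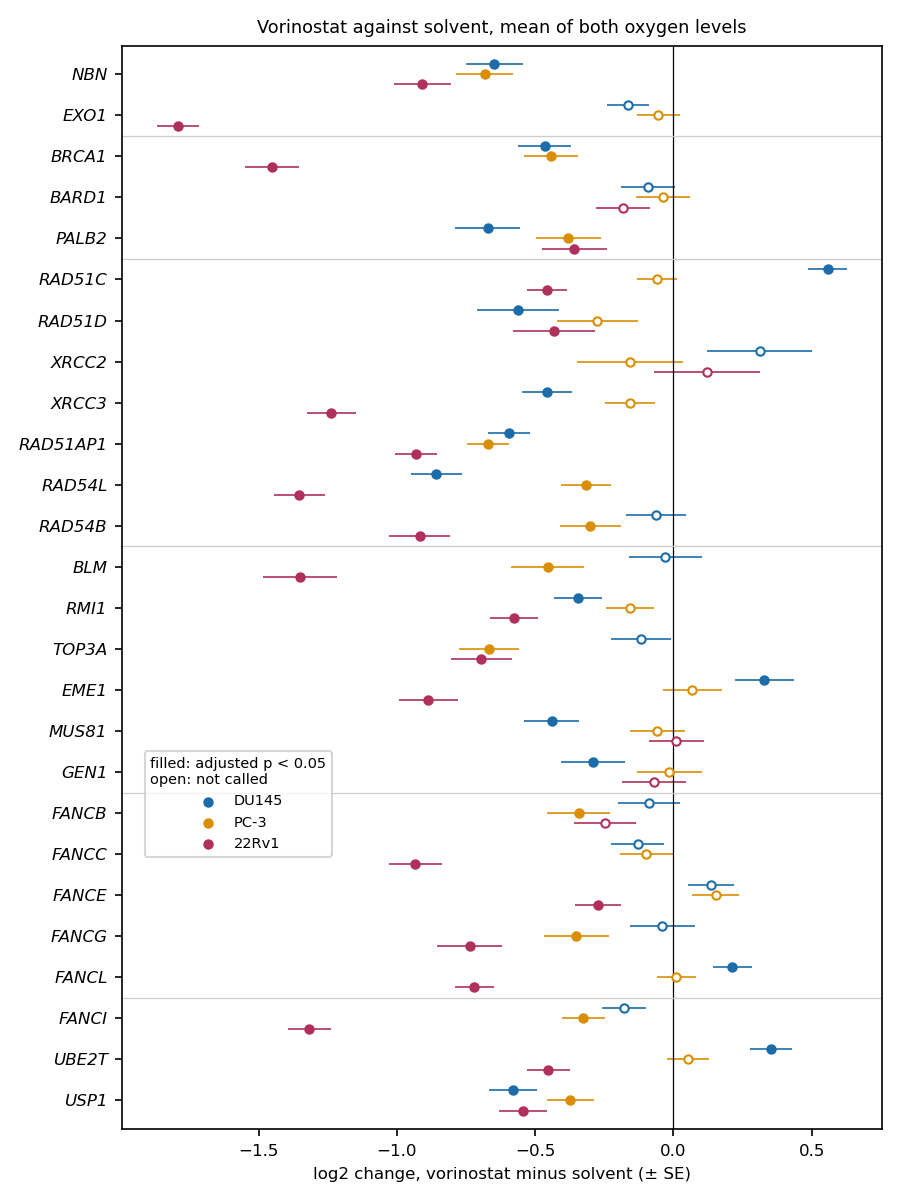
Log2 change with vorinostat (horizontal axis, vorinostat minus solvent, mean of both oxygen levels, bars ± SE) for the 26 tested genes in each line, grouped by role with thin lines between roles. Filled points passed the adjusted p of 0.05, and in 22Rv1 these are 21 genes, all to the left of 0, from -0.27 for FANCE to -1.79 for EXO1, while 4 genes lie to the right of 0 as filled DU145 points.

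Sequences upstream of 5 of these genes are shown first, chosen because the largest falls in 22Rv1 and the opposite movements between lines concern them. EXO1, RAD54L and BLM are among the members with the largest falls in 22Rv1, and RAD51C and UBE2T rose in DU145 and fell in 22Rv1. Each line holds the 250 bases before the gene's start in RefSeq (GRCh38.p14), read 5′ to 3′ on the gene's strand, with capitals marking motif matches on either strand.
EXO1: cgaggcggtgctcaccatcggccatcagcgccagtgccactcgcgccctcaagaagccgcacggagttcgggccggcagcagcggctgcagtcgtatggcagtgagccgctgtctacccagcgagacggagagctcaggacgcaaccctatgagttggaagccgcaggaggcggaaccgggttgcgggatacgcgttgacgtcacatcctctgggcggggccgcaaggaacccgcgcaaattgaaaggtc
RAD54L: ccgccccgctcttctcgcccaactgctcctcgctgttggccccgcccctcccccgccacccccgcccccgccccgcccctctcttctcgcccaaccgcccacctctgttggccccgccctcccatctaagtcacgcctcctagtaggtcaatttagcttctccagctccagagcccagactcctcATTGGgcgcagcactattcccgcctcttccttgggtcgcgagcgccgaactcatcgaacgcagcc
BLM: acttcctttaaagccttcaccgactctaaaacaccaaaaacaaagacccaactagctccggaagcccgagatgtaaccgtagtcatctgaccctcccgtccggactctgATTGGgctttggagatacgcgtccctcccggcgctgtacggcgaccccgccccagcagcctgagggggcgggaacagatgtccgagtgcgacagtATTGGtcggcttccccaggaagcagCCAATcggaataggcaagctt
RAD51C: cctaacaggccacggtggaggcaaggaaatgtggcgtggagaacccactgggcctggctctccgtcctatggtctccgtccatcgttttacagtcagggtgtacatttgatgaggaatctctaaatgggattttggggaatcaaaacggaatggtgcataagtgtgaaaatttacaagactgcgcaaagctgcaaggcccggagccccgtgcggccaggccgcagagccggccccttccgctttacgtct
UBE2T: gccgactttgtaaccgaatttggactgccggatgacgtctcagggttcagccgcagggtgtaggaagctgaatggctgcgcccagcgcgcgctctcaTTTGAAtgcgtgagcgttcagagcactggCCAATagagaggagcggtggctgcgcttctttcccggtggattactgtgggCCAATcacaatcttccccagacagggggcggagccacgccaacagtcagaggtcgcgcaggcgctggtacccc
The windows lie at chr1:241847954-241848203, plus strand (EXO1), chr1:46247438-46247687, plus strand (RAD54L), chr15:90717096-90717345, plus strand (BLM), chr17:58692323-58692572, plus strand (RAD51C) and chr1:202341937-202342186, minus strand (UBE2T). Motifs searched were an E2F site (TTTCGCGC, TTTGGCGC, TTTCCCGC or TTTGCCGC), the cell cycle genes homology region or CHR (TTTGAA or TTCGAA) and the CCAAT box (CCAAT), each on both strands, and no match overlapped one of another motif in these windows. RAD54L holds 1 CCAAT box, at -65 from the start, BLM holds 3, at -141, -46 and -21, and UBE2T holds a CHR match at -153 and CCAAT boxes at -124 and -73. The windows of EXO1 and RAD51C hold none of these letters. Of the 21 genes that fell in 22Rv1, 18 have at least 1 such window, of which 2 (11.1%) hold an E2F match, 3 (16.7%) a CHR match and 9 (50%) a CCAAT box. Over the 9900 tested genes with a window these shares are 5.66%, 13.7% and 42.1%. Some genes have more than 1 window, and a match in any of them counts in these shares. The E2F match of RMI1 and the CHR matches of USP1 lie in their second windows, while the sequences above are first windows. A match describes letters and not a bound site.

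At the break ends, NBN fell in all lines and EXO1 in 22Rv1. NBN is a subunit of the complex that senses and tethers DNA ends, and RAD50 is its partner there; RBBP8 starts the trimming of the ends and EXO1, a 5′ to 3′ exonuclease, extends it. Array values are given from lowest to highest. The log2 levels of EXO1 in 22Rv1 were 8.45, 8.46 and 8.57 in normoxia with solvent and 7.14, 7.21 and 7.21 with vorinostat. In hypoxia they were 7.74, 7.75 and 8.09 with solvent and 5.37, 5.53 and 5.86 with vorinostat. At both oxygen levels all vorinostat arrays lay below all solvent arrays, and the hypoxic vorinostat arrays were the lowest of the 12. The mean change was -1.79 ± 0.077, adjusted p = 7.86e-18 (log2 ± SE, limma), a 3.46-fold fall, and it was the largest among the members in any line. In DU145 the levels of EXO1 were 9.27, 9.27 and 9.37 with solvent and 8.94, 8.94 and 9.05 with vorinostat in normoxia, and 9.22, 9.35 and 9.44 (solvent) and 9.13, 9.44 and 9.45 (vorinostat) in hypoxia. There the normoxic groups did not overlap and the hypoxic ones did, and the mean change was -0.16 ± 0.077 (adjusted p = 0.0752). A second EXO1 probe gave -0.26 in DU145 (adjusted p = 0.00524), so that the call in this line differs between probes, and EXO1 was called lower there under 4 of 46 alternatives (lowest adjusted p = 0.00356). In PC-3 the change of EXO1 was -0.054 ± 0.077 (adjusted p = 0.64).

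The levels of NBN in DU145 were 8.70, 8.87 and 8.91 with solvent and 7.81, 8.14 and 8.25 with vorinostat in normoxia, and 8.32, 8.32 and 8.45 (solvent) and 7.67, 7.81 and 7.99 (vorinostat) in hypoxia. In PC-3 they were 9.0, 9.07 and 9.49 (solvent) and 8.28, 8.66 and 8.74 (vorinostat) in normoxia, and 8.85, 8.92 and 9.17 (solvent) and 8.11, 8.17 and 8.44 (vorinostat) in hypoxia. Within each oxygen level of both lines the vorinostat arrays lay below the solvent arrays. NBN changed by -0.65 ± 0.10, adjusted p = 3.63e-06 in DU145, by -0.68 ± 0.10, adjusted p = 3.34e-06 in PC-3 and by -0.91 ± 0.10, adjusted p = 1.37e-08 in 22Rv1 (limma), and in PC-3 this was the largest fall of any member.

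Among the BRCA complexes, BRCA1 and PALB2 fell in all 3 lines. BRCA1 and BARD1 form a ubiquitin ligase that acts at breaks, BRIP1 is a helicase that binds BRCA1, and PALB2 joins BRCA1 to BRCA2, which loads the recombinase. In 22Rv1 the log2 levels of BRCA1 were 8.39, 8.42 and 8.43 in normoxia with solvent and 7.04, 7.12 and 7.26 with vorinostat. In hypoxia they were 7.79, 7.83 and 7.98 (solvent) and 6.19, 6.21 and 6.31 (vorinostat). The solvent and vorinostat arrays did not overlap at either oxygen level, and BRCA1 changed by -1.45 ± 0.10, adjusted p = 1.79e-13 (limma). In PC-3 the levels were 6.55, 6.82 and 7.20 (solvent) and 6.26, 6.51 and 6.65 (vorinostat) in normoxia and 6.46, 6.52 and 6.78 (solvent) and 5.82, 6.19 and 6.24 (vorinostat) in hypoxia, overlapping in normoxia and not in hypoxia, with a mean change of -0.44 ± 0.10, adjusted p = 0.000454 (limma). In DU145 BRCA1 fell by 0.47 ± 0.10. Its change there was -0.72 in normoxia, with the groups apart. In hypoxia it was -0.21, which was not called, and the groups overlapped.

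PALB2 in DU145 was at 6.73, 7.15 and 7.21 with solvent and 5.85, 6.30 and 6.34 with vorinostat in normoxia. In hypoxia it was at 6.36, 6.38 and 6.74 (solvent) and 5.87, 5.99 and 6.19 (vorinostat), with the groups apart at both oxygen levels. Its mean change was -0.67 ± 0.12, adjusted p = 1.46e-05 in DU145, -0.38, adjusted p = 0.01 in PC-3 and -0.36, adjusted p = 0.0128 in 22Rv1 (limma). At a single oxygen level PALB2 was not called in PC-3 (-0.42 in normoxia, -0.34 in hypoxia) or in 22Rv1 (-0.34 and -0.38). In PC-3 it was above background on 2 of the 3 hypoxic vorinostat arrays. In 22Rv1 the call on the mean ended without 1 hypoxic vorinostat array, replicate 1 (adjusted p = 0.0628). BARD1, above background on all 36 arrays, had changes of -0.09 in DU145, -0.039 in PC-3 and -0.18 in 22Rv1, with adjusted p of 0.472, 0.805 and 0.136 in limma. The BARD1 fall in 22Rv1 was called with median scaling, with array weights and without replicate 1 of hypoxic vorinostat (lowest adjusted p = 0.0247).

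Among the filament and strand exchange genes, 6 of 7 fell in 22Rv1, 3 in PC-3 and 4 in DU145, where RAD51C rose. Over all genes 22.4%, 19.7% and 24.7% were called lower in this order, and 27.9% higher in DU145. RAD51C, RAD51D, XRCC2 and XRCC3 are paralogues of the recombinase that help to build its filament, RAD51AP1 stimulates strand pairing, and RAD54L and RAD54B are motor proteins that drive strand exchange. In DU145 the log2 levels of RAD54L were 7.48, 7.49 and 7.64 in normoxia with solvent and 6.43, 6.54 and 6.81 with vorinostat. In hypoxia they were 6.96, 6.99 and 6.99 (solvent) and 6.12, 6.23 and 6.26 (vorinostat). The change of -0.86 ± 0.092 (adjusted p = 3.4e-09, limma) was the largest fall of the members in this line. In 22Rv1 RAD54L stood at 7.70, 7.91 and 7.99 (solvent) and 6.53, 6.63 and 7.04 (vorinostat) in normoxia and at 7.22, 7.34 and 7.50 (solvent) and 5.60, 5.71 and 6.03 (vorinostat) in hypoxia, and changed by -1.35 ± 0.092, adjusted p = 2.65e-13 (limma). In neither line did solvent and vorinostat arrays overlap within an oxygen level. In PC-3 RAD54L fell by 0.32 ± 0.09.

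RAD51AP1 fell in all 3 lines. Its log2 levels in DU145 were 9.62, 9.73 and 9.84 with solvent and 8.90, 8.97 and 8.99 with vorinostat in normoxia, and 9.34, 9.57 and 9.65 (solvent) and 8.96, 9.17 and 9.20 (vorinostat) in hypoxia. In PC-3 they were 8.80, 8.93 and 8.98 (solvent) and 8.18, 8.38 and 8.57 (vorinostat) in normoxia, and 8.83, 8.99 and 9.08 (solvent) and 8.05, 8.17 and 8.22 (vorinostat) in hypoxia. The vorinostat arrays were lower without overlap in both lines, and the changes were -0.59 ± 0.076, adjusted p = 1.02e-07 in DU145, -0.67 ± 0.076, adjusted p = 2.78e-08 in PC-3 and -0.93 ± 0.076, adjusted p = 1.68e-11 in 22Rv1 (limma).

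RAD51C moved in opposite directions. In DU145 its log2 levels were 10.00, 10.05 and 10.22 with solvent and 10.33, 10.47 and 10.56 with vorinostat in normoxia, and 9.79, 9.79 and 9.87 (solvent) and 10.48, 10.53 and 10.71 (vorinostat) in hypoxia. In 22Rv1 they were 10.22, 10.27 and 10.29 (solvent) and 9.82, 9.88 and 9.94 (vorinostat) in normoxia, and 9.65, 9.65 and 9.76 (solvent) and 9.04, 9.18 and 9.25 (vorinostat) in hypoxia. Within each oxygen level every vorinostat array was above every solvent array in DU145 and below every solvent array in 22Rv1. The changes were 0.56 ± 0.072, adjusted p = 9.94e-08 and -0.46 ± 0.072, adjusted p = 3.86e-06 (limma), and in PC-3, at 10.25, 10.35 and 10.67 (solvent) and 10.23, 10.49 and 10.53 (vorinostat) in normoxia and 9.81, 9.95 and 9.95 (solvent) and 9.74, 9.76 and 9.89 (vorinostat) in hypoxia, the change was -0.059 ± 0.072 (adjusted p = 0.574). XRCC3 changed by -1.24 ± 0.089, adjusted p = 1.07e-12 in 22Rv1 and -0.46 ± 0.089, adjusted p = 7.01e-05 in DU145 (limma). RAD54B fell in 22Rv1 (-0.92 ± 0.11) and in PC-3 (-0.30 ± 0.11), and RAD51D in DU145 (-0.56 ± 0.15) and 22Rv1 (-0.43 ± 0.15). In PC-3 the RAD54B call ended without any of 5 single arrays (without replicate 1 in normoxia with vorinostat, adjusted p = 0.152), and in 22Rv1 the RAD51D call ended without replicate 1 of hypoxic vorinostat (0.0813) and was not made by a second probe (adjusted p = 0.054). XRCC2 had changes of 0.31 ± 0.19 in DU145, -0.16 ± 0.19 in PC-3 and 0.12 ± 0.19 in 22Rv1, with adjusted p of 0.179, 0.571 and 0.654 in limma.

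**Figure D2:**
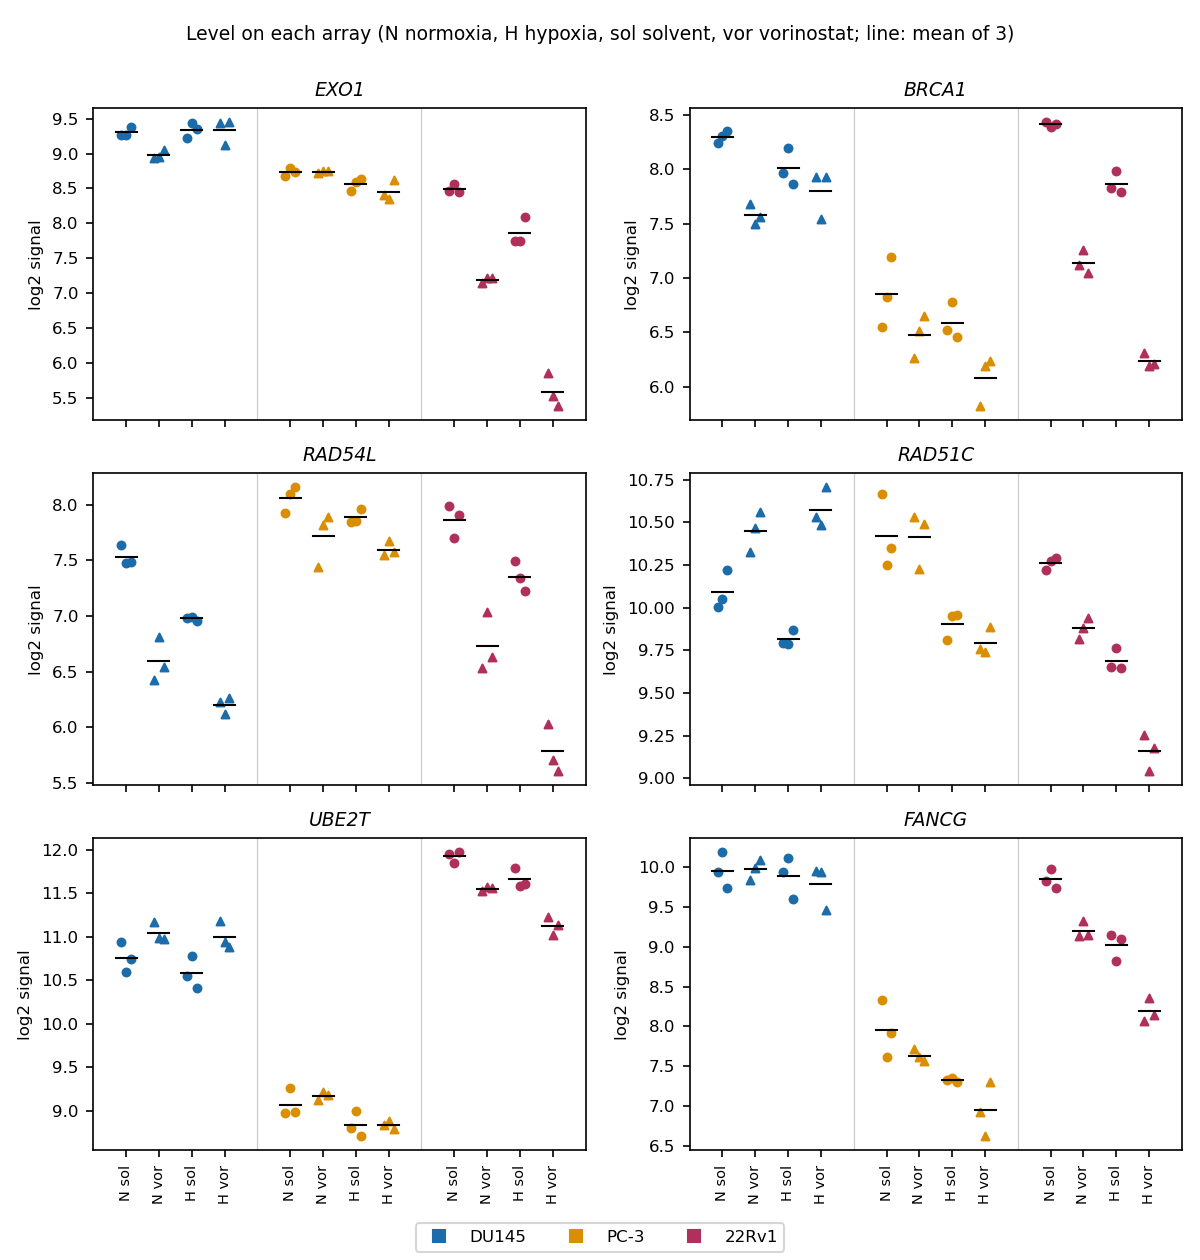
Log2 signal (vertical axis) of EXO1, BRCA1, RAD54L, RAD51C, UBE2T and FANCG on each of the 36 arrays, with 3 arrays per group and a bar at the group mean, circles for solvent and triangles for vorinostat. In 22Rv1 the lowest 3 arrays of each of the 6 genes are the hypoxic vorinostat arrays, and the RAD51C and UBE2T triangles of DU145 lie above its circles within each oxygen level.

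Of the genes that process joined DNA molecules, 4 of 6 fell in 22Rv1, 2 in PC-3 and 3 in DU145, and EME1 rose in DU145. The shares of all genes called lower were 22.4%, 19.7% and 24.7% in this order, and 27.9% were called higher in DU145. BLM, a helicase, works with the topoisomerase TOP3A and with RMI1 to take joined molecules apart, while EME1 with MUS81 forms a nuclease that cuts them and GEN1 is another such nuclease. In 22Rv1 the log2 levels of BLM were 6.94, 6.99 and 7.01 in normoxia with solvent and 5.75, 5.90 and 6.01 with vorinostat. In hypoxia they were 6.43, 6.54 and 6.57 (solvent) and 4.57, 4.88 and 5.27 (vorinostat), where 2 of the 3 vorinostat arrays were not above background. The groups did not overlap, and the change was -1.35 ± 0.13, adjusted p = 7.91e-10 (limma). In DU145 BLM was at 7.13, 7.21 and 7.28 (solvent) and 6.81, 6.91 and 6.98 (vorinostat) in normoxia and at 6.93, 7.07 and 7.22 (solvent) and 7.14, 7.29 and 7.55 (vorinostat) in hypoxia, with a mean change of -0.029 ± 0.13 (adjusted p = 0.883, limma). In PC-3 it was at 5.80, 6.22 and 6.87 (solvent) and 6.02, 6.06 and 6.48 (vorinostat) in normoxia and at 6.10, 6.40 and 6.47 (solvent) and 5.20, 5.59 and 5.77 (vorinostat) in hypoxia, with groups apart in hypoxia alone. The change of -0.46 ± 0.13, adjusted p = 0.00665 (limma) was not called when the PC-3 arrays were fitted alone (adjusted p = 0.0632).

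TOP3A fell in PC-3, from 7.33, 7.36 and 7.58 to 6.91, 6.92 and 6.96 in normoxia and from 7.14, 7.44 and 7.71 to 6.37, 6.60 and 6.79 in hypoxia, without overlap and with a mean change of -0.67 ± 0.11, adjusted p = 1.07e-05 (limma). It also fell in 22Rv1 (-0.69 ± 0.11), and in DU145, where the probe used was not called (-0.12 ± 0.11), a second probe gave -0.66 (adjusted p = 4.03e-05). EME1 in DU145 was at 6.33, 6.69 and 6.83 (solvent) and 6.79, 6.84 and 6.92 (vorinostat) in normoxia and at 6.09, 6.50 and 6.73 (solvent) and 6.78, 6.85 and 6.96 (vorinostat) in hypoxia, and the arrays overlapped in normoxia. In 22Rv1 it was at 7.39, 7.54 and 7.61 (solvent) and 6.47, 6.80 and 6.94 (vorinostat) in normoxia and at 6.92, 7.04 and 7.14 (solvent) and 5.96, 6.01 and 6.14 (vorinostat) in hypoxia, with vorinostat arrays the lower ones. EME1 changed by 0.33 ± 0.11, adjusted p = 0.0097 in DU145, 0.069 in PC-3 (adjusted p = 0.668) and -0.89 ± 0.11, adjusted p = 3.7e-08 in 22Rv1, all in limma. Without 1 hypoxic DU145 solvent array, replicate 3, the rise of EME1 was no longer called (adjusted p = 0.0523). MUS81 fell in DU145 (-0.44 ± 0.10), GEN1 in DU145 (-0.29 ± 0.12), where it was above background on 6 of 12 arrays, and RMI1 in DU145 (-0.34 ± 0.087) and 22Rv1 (-0.58 ± 0.087). The GEN1 call ended without any of 5 single DU145 arrays, replicate 3 of 3 groups among them and under 4 of the other alternatives (without the normoxic solvent array, adjusted p = 0.117), and a second GEN1 probe was not called in DU145 (adjusted p = 0.899) but lower in PC-3 (-0.44, adjusted p = 0.0173) and 22Rv1 (-0.46, adjusted p = 0.0114). A second RMI1 probe had -0.10 in DU145 (adjusted p = 0.483) and was lower in PC-3 (-0.32, adjusted p = 0.0164).

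In the Fanconi core complex, 4 of 5 tested genes fell in 22Rv1, 2 in PC-3 and 0 in DU145, where FANCL rose. Among all genes 22.4%, 19.7% and 24.7% were called lower in this order, and 27.9% higher in DU145. FANCC was not above background on any PC-3 array, nor the probe used for FANCB on any 22Rv1 array. FANCA, FANCB, FANCC, FANCE, FANCF, FANCG, FANCL and FANCM build this complex, FANCL being its ubiquitin ligase and FANCM a motor protein that anchors it on DNA. FANCL in DU145 was at 7.42, 7.46 and 7.64 with solvent and 7.48, 7.53 and 7.58 with vorinostat in normoxia, which overlap, and at 7.41, 7.63 and 7.75 (solvent) and 7.91, 7.97 and 8.09 (vorinostat) in hypoxia, which do not. In 22Rv1 it was at 8.17, 8.24 and 8.34 (solvent) and 7.64, 7.68 and 7.70 (vorinostat) in normoxia, and at 7.62, 7.63 and 7.68 (solvent) and 6.54, 6.84 and 6.95 (vorinostat) in hypoxia, apart at both. FANCL changed by 0.21 ± 0.071, adjusted p = 0.0117 in DU145, 0.011 in PC-3 (adjusted p = 0.933) and -0.72 ± 0.071, adjusted p = 7.51e-10 in 22Rv1, all in limma. The DU145 call ended with median scaling (adjusted p = 0.075) and without 1 hypoxic DU145 solvent array, replicate 2 (adjusted p = 0.0526). FANCC fell in 22Rv1 (-0.93 ± 0.10) and was above background on 0 of the 3 hypoxic vorinostat arrays there, where the fall against solvent was at least 1.62-fold. FANCG fell in 22Rv1 (-0.74 ± 0.12) and PC-3 (-0.35 ± 0.12), FANCE in 22Rv1 (-0.27 ± 0.084), and FANCB in PC-3 (-0.34 ± 0.11), the line in which it was above background on all 12 arrays. The PC-3 calls of FANCG and FANCB ended without replicate 2 of its hypoxic vorinostat arrays (adjusted p = 0.0718 and 0.0503), that of FANCG also without replicate 1 and that of FANCB without replicate 3 of its normoxic solvent arrays. A second FANCB probe had -0.056 in PC-3 (adjusted p = 0.796), and the mean of the probes was not called (adjusted p = 0.122). FANCE was no longer called with cyclic loess (adjusted p = 0.11).

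Of the clamp and its ubiquitin switch, FANCI, UBE2T and USP1 were tested. FANCI forms the clamp with FANCD2, UBE2T is the enzyme that hands ubiquitin to it, and USP1 takes the ubiquitin off again. In 22Rv1 the log2 levels of FANCI were 8.08, 8.16 and 8.25 with solvent and 6.78, 7.01 and 7.17 with vorinostat in normoxia, and 7.76, 7.76 and 7.91 (solvent) and 6.29, 6.36 and 6.41 (vorinostat) in hypoxia. These groups lay over 1 log2 unit apart on average, and the change was -1.32 ± 0.079, adjusted p = 1.45e-14 (limma), beside -0.33 ± 0.079 in PC-3 and -0.18 ± 0.079 in DU145, which was not called (adjusted p = 0.0558). FANCI was called lower in DU145 under 7 of 46 alternatives, 5 of which leave out a single array (lowest adjusted p = 0.00616, without replicate 2 of normoxic solvent). UBE2T in DU145 was at 10.59, 10.74 and 10.94 (solvent) and 10.98, 10.98 and 11.17 (vorinostat) in normoxia and at 10.41, 10.55 and 10.78 (solvent) and 10.88, 10.94 and 11.18 (vorinostat) in hypoxia. In 22Rv1 it was at 11.85, 11.95 and 11.97 (solvent) and 11.52, 11.56 and 11.57 (vorinostat) in normoxia and at 11.58, 11.60 and 11.79 (solvent) and 11.02, 11.13 and 11.23 (vorinostat) in hypoxia. The vorinostat arrays were the higher ones in DU145 and the lower ones in 22Rv1 at each oxygen level, with changes of 0.35 ± 0.076, adjusted p = 0.000231 and -0.45 ± 0.076, adjusted p = 1.19e-05, against 0.053 in PC-3 (adjusted p = 0.645), all in limma. USP1 in DU145 was at 9.07, 9.14 and 9.18 (solvent) and 8.49, 8.5 and 8.62 (vorinostat) in normoxia and at 9.26, 9.41 and 9.55 (solvent) and 8.68, 8.88 and 8.96 (vorinostat) in hypoxia, with no overlap, and changed by -0.58 ± 0.086, adjusted p = 1.14e-06 (limma). It changed by -0.37 in PC-3 and -0.54 in 22Rv1.

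Genes of the same pathways outside the list moved in both directions. Of 38 other recombination and Fanconi genes, 34 were tested, and vorinostat lowered 12 and raised 10 in DU145, 11 and 7 in PC-3, and 13 and 4 in 22Rv1. Over all genes 24.7% were called lower and 27.9% higher in DU145, 19.7% and 19.8% in PC-3, and 22.4% and 22.9% in 22Rv1. Among the largest changes was that of RMI2, a partner of BLM, with -1.46 ± 0.081, adjusted p = 2.38e-15 in 22Rv1 (limma). DNA2, a nuclease and helicase of resection, changed by -0.98 ± 0.094 there. ERCC1, a subunit of a nuclease that cuts crosslinked DNA, rose by 0.93 ± 0.081 in DU145 and 0.91 ± 0.081 in PC-3. SFR1, a cofactor of the recombinase, rose by 0.91 ± 0.093 in DU145 and 0.93 ± 0.093 in PC-3. RMI2 rose in PC-3 (0.41 ± 0.081) and fell in DU145 (-0.30 ± 0.081).

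Genes of DNA replication and the cell cycle also fell with vorinostat. Of 17 such genes tested out of 19, vorinostat lowered 16 in 22Rv1, 11 in PC-3 and 13 in DU145 and raised 0 in each, with median changes of -1.20, -0.44 and -0.54. Over all genes 22.4%, 19.7% and 24.7% were called lower in this order. MKI67, a marker of dividing cells, changed by -1.19 ± 0.18, adjusted p = 1.98e-06 in 22Rv1, -0.45 ± 0.18, adjusted p = 0.0355 in DU145 and -0.24 ± 0.18 in PC-3 (adjusted p = 0.309, limma). E2F1, a transcription factor of replication genes, had changes of -0.15 ± 0.16 in DU145, 0.23 ± 0.16 in PC-3 and -0.30 ± 0.16 in 22Rv1, with adjusted p of 0.442, 0.277 and 0.131 in limma, and CCNE2 was not tested. CDKN1A, the cell cycle inhibitor p21, rose by 1.37 ± 0.16 in DU145, 1.18 ± 0.16 in PC-3 and 0.60 ± 0.16 in 22Rv1. The part of these genes' changes in the changes of the members was not tested.

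The drug effect itself differed between lines for 17 of the 26 genes when 22Rv1 was set against DU145. Of these, 16 had the lower effect in 22Rv1, and over all genes 39.5% differed, 21.2% with the lower effect in 22Rv1. The largest differences were EXO1 (-1.63 ± 0.11, adjusted p = 7.72e-13), BLM (-1.32 ± 0.19, adjusted p = 1.42e-06) and EME1 (-1.22 ± 0.15, adjusted p = 1.35e-07), given as the log2 change in 22Rv1 minus that in DU145 in limma. Those of the other genes with opposite calls were -1.01 for RAD51C, -0.93 for FANCL and -0.81 for UBE2T. MUS81 alone of the 17 had the higher effect in 22Rv1 (0.0095, not called, against -0.44 in DU145). Set against PC-3, the effect in 22Rv1 was lower for 14 genes and higher for 0 (all genes 28.2%, 13.5% lower), with the largest differences for EXO1 (-1.74 ± 0.11, adjusted p = 2.74e-13), XRCC3 (-1.08 ± 0.13, adjusted p = 8.67e-08) and RAD54L (-1.04 ± 0.13, adjusted p = 2.96e-07). The 14 include FANCC (-0.84), which was not above background on any PC-3 array. No drug effect on FANCC was therefore measured in PC-3, and its difference is only a description.

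Between PC-3 and DU145 the drug effect differed for 5 of the 26 genes, against 31.0% of all genes. RAD51C (-0.62 ± 0.10, adjusted p = 2.28e-05), TOP3A (-0.55 ± 0.15, adjusted p = 0.00658) and UBE2T (-0.30 ± 0.11, adjusted p = 0.0325) had the lower effect in PC-3, and RAD54L (0.54 ± 0.13, adjusted p = 0.00177) and MUS81 (0.38 ± 0.14, adjusted p = 0.0384) the higher one (limma). The count fell to 3 without any of 4 arrays, replicate 1 of normoxic and of hypoxic DU145 with vorinostat, replicate 3 of hypoxic DU145 with solvent and replicate 2 of hypoxic PC-3 with solvent. The MUS81 difference was lost without any of 11 single arrays and the UBE2T difference without any of 7. Median scaling also ended the UBE2T call. The TOP3A difference was not called with the mean of its probes (adjusted p = 0.202). The comparisons between lines share the arrays of each line.

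The drug effect was also compared between the 2 oxygen levels, and the difference was called for EXO1 and XRCC3 in 22Rv1. In normoxia vorinostat lowered 12 and raised 2 of the 26 in DU145 (all genes 40.8% called), lowered 4 and raised 0 in PC-3 (25.7%) and lowered 19 and raised 0 in 22Rv1 (31.3%). The arrays of solvent and drug did not overlap there for 17 members in DU145, 6 in PC-3 and 21 in 22Rv1, against 47.2%, 33.1% and 53.3% of all genes. In hypoxia it lowered 7 and raised 4 in DU145 (41.3%), 9 and 0 in PC-3 (28.4%) and 19 and 0 in 22Rv1 (33.4%). There 12, 12 and 19 members did not overlap, against 49.8%, 35.9% and 49.9% of all genes. The effect in hypoxia minus that in normoxia was called for 0 members in DU145 and 0 in PC-3, with 7 and 4 at an unadjusted p under 0.05 in limma, against 0.729% and 0.0567% of all genes called. It was called for 2 in 22Rv1, against 0.729% of all genes. EXO1 fell more in hypoxia (-2.28 against -1.31, difference -0.97 ± 0.15, adjusted p = 0.000539), and so did XRCC3 (-1.64 against -0.84, difference -0.80 ± 0.18, adjusted p = 0.0212) in limma. The log2 levels of XRCC3 in 22Rv1 were 7.30, 7.74 and 7.81 with solvent and 6.63, 6.75 and 6.95 with vorinostat in normoxia, and 6.98, 7.10 and 7.25 (solvent) and 5.17, 5.60 and 5.65 (vorinostat) in hypoxia. Of these hypoxic vorinostat arrays 2 of 3 were above background. On the authors' processed values neither difference was called (adjusted p = 0.373 and 0.636). The XRCC3 difference was also lost with median scaling, with the 22Rv1 arrays fitted alone, and without any of 4 single arrays (replicate 1 of hypoxic vorinostat, 2 of hypoxic solvent, 2 of normoxic vorinostat and 3 of normoxic solvent), which left a count of 1. Of the 17 cell cycle genes, 6 had a larger fall in hypoxic 22Rv1 and 0 a smaller one.

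Hypoxia without drug lowered 13 of the 26 genes in 22Rv1, 5 in DU145 and 3 in PC-3 and raised 0 in each line. The change is the log2 level on hypoxic solvent arrays minus that on normoxic solvent arrays. Over all genes 20.2% were called in 22Rv1 (10.3% lower), 14.8% in DU145 (6.93%) and 16.9% in PC-3 (9.54%), while 9.89%, 7.87% and 7.35% were called higher. Normoxic and hypoxic arrays did not overlap for 20 members in 22Rv1, 9 in DU145 and 8 in PC-3, against 45.1%, 29.1% and 27.9% of all genes. No member was called lower in all 3 lines, and RAD51C, FANCE and FANCG fell in PC-3 and in 22Rv1, RAD51D and RAD54L in DU145 and in 22Rv1. The call of RAD51D in 22Rv1 ended without any 1 of its 6 arrays (without replicate 2 in normoxia, adjusted p = 0.147), and a second probe was not called (adjusted p = 0.125). The solvent arrays in normoxia also enter the drug comparison.

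FANCE and FANCG, of the core complex, had the largest falls of the members in PC-3 and 22Rv1. FANCE stood at 7.54, 7.61 and 7.70 in normoxia and 6.60, 6.66 and 6.86 in hypoxia in 22Rv1 (-0.91 ± 0.12, adjusted p = 1.07e-06), and at 7.96, 8.03 and 8.11 (normoxia) and 7.35, 7.43 and 7.60 (hypoxia) in PC-3 (-0.57 ± 0.12, adjusted p = 0.000973), apart in both (limma). FANCG stood at 9.74, 9.82 and 9.97 (normoxia) and 8.82, 9.10 and 9.14 (hypoxia) in 22Rv1 (-0.82 ± 0.17, adjusted p = 0.000562), and at 7.62, 7.92 and 8.33 (normoxia) and 7.30, 7.33 and 7.36 (hypoxia) in PC-3 (-0.63 ± 0.17, adjusted p = 0.00802), again apart. The FANCG call in PC-3 ended without 1 normoxic solvent array, replicate 1 (adjusted p = 0.0946), and with PC-3 fitted alone (0.0553). EXO1 fell by 0.63 ± 0.11 in hypoxic 22Rv1 (adjusted p = 8.42e-05, limma), FANCL by 0.60 ± 0.10 and BRCA1 by 0.54 ± 0.14. RAD51C fell by 0.57 ± 0.10 in 22Rv1 and by 0.52 ± 0.10 in PC-3, with adjusted p of 0.000114 and 0.000514 in limma. A further probe was not called for BRCA1 in 22Rv1 (adjusted p = 0.147) and for RAD51C in PC-3 (adjusted p = 0.0614).

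In DU145 hypoxia lowered RAD51D, RAD54L, PALB2, GEN1 and NBN. RAD51D stood at 6.12, 6.29 and 6.75 in normoxia and 5.46, 5.48 and 5.99 in hypoxia, where 1 array was not above background, and changed by -0.74 ± 0.21, adjusted p = 0.0143 (limma). RAD54L changed by -0.55 ± 0.13, adjusted p = 0.00332 and PALB2 by -0.54 ± 0.17, adjusted p = 0.0264 (limma), and the normoxic and hypoxic arrays overlapped for PALB2, not for RAD54L or RAD51D. Of these 5, only RAD54L stayed called under all alternatives, RAD51D reached an adjusted p of 0.116 without replicate 3 of the normoxic arrays, and the count of 5 fell to 2 or 3 without any of 4 of the 6 solvent arrays, replicates 1 and 3 in hypoxia and 2 and 3 in normoxia. With the DU145 arrays fitted alone it was 2, on the authors' processed values 8, of which 2 were higher, and with a replicate block 8, again with 2 higher. Second probes were not called for RAD51D (adjusted p = 0.156), GEN1 (0.739) or NBN (0.39), and that of NBN had a change of 0.28, the opposite sign.

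**Figure D3:**
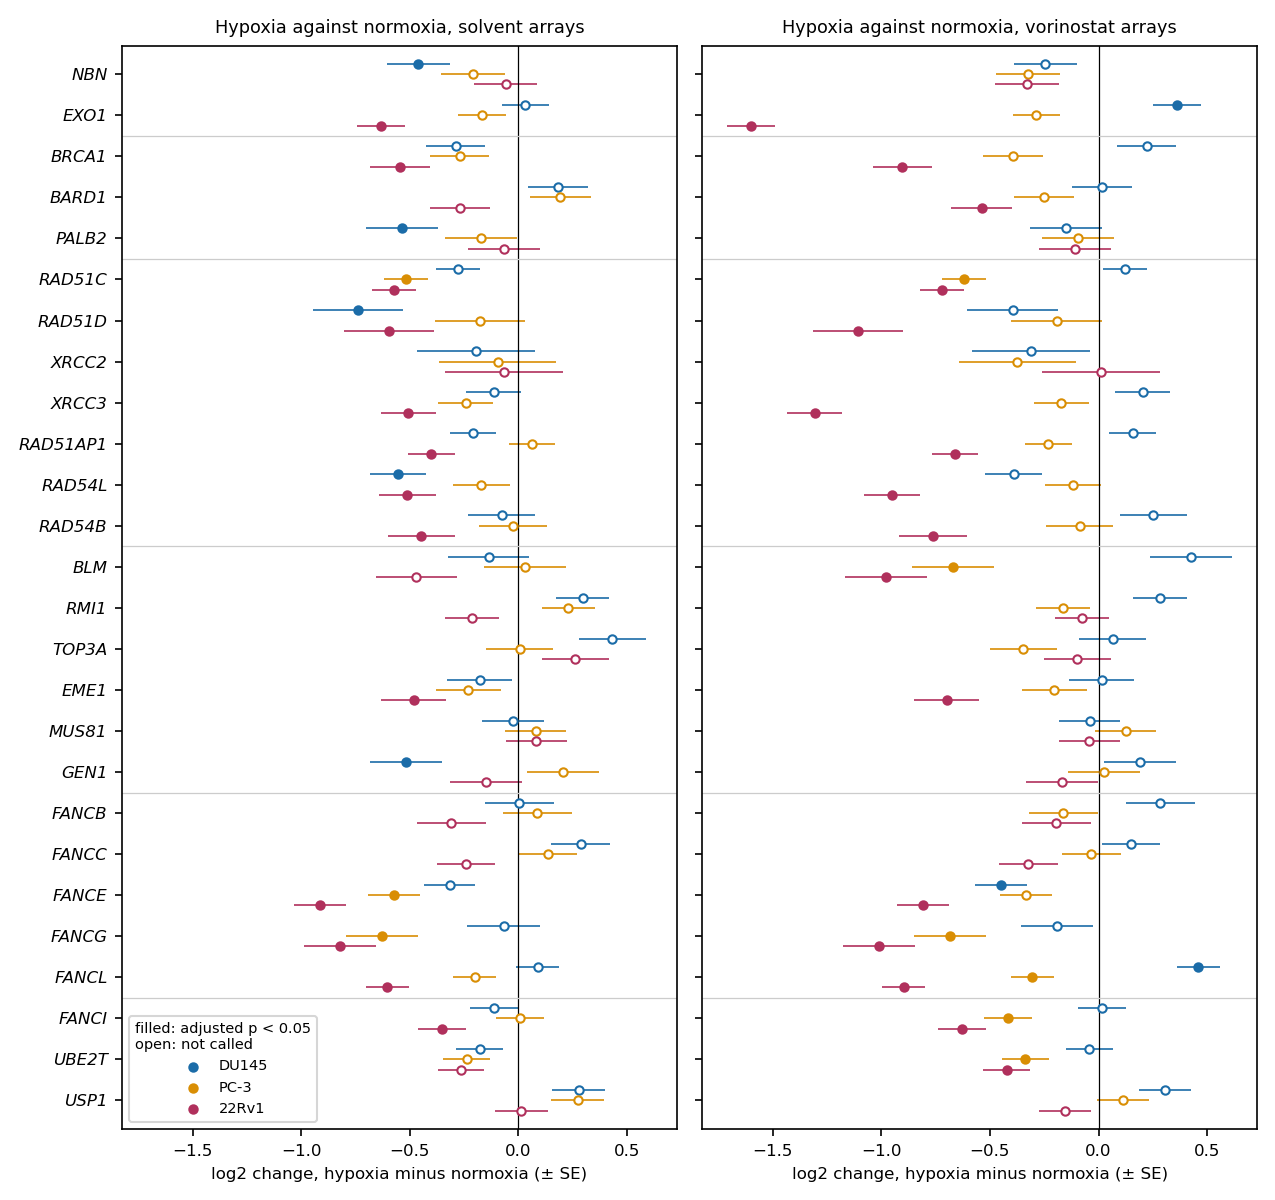
Log2 change in hypoxia (horizontal axis, hypoxia minus normoxia, bars ± SE) of the 26 genes in each line, on solvent arrays in the left panel and on vorinostat arrays in the right panel, with filled points for an adjusted p under 0.05. In 22Rv1 13 points on the left and 16 on the right are filled, all below 0, and on the right EXO1 and FANCL of DU145 are filled above 0.

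On vorinostat arrays hypoxia lowered 16 of the 26 genes in 22Rv1 (all genes 21.8% called, 12.2% lower), 6 in PC-3 (13.9%, 7.08% lower) and 1 in DU145 (8.98%, 4.32% lower), and raised 0, 0 and 2, against 9.63%, 6.83% and 4.65% of all genes called higher. Arrays did not overlap for 19 members in 22Rv1, 10 in PC-3 and 8 in DU145, against 43.9%, 25.4% and 24.6% of all genes. The largest changes in 22Rv1 were EXO1 (-1.60 ± 0.11, adjusted p = 1.58e-12), XRCC3 (-1.31 ± 0.13, adjusted p = 3.04e-09) and RAD51D (-1.11 ± 0.21, adjusted p = 0.00021) in limma. XRCC3 and RAD51D were each above background on 2 of the 3 hypoxic vorinostat arrays there. The 2 that rose in DU145 were FANCL (0.46 ± 0.10, adjusted p = 0.00307) and EXO1 (0.36 ± 0.11, adjusted p = 0.0352), and FANCE fell (-0.45 ± 0.12, adjusted p = 0.0149, limma). The EXO1 rise was lost with median scaling (adjusted p = 0.0554) and without any of 4 single arrays. The DU145 count was 1 without replicate 1 of its hypoxic arrays or replicate 2 of its normoxic ones, and 6 with a replicate block (4 higher, 2 lower). The PC-3 count was 2 without replicate 1 of its hypoxic vorinostat arrays, 3 without replicate 2 or 3 of its normoxic ones, and 2 with PC-3 fitted alone. Of the 17 cell cycle genes, hypoxia lowered 7 in 22Rv1, 2 in PC-3 and 0 in DU145 on solvent arrays, and 12, 6 and 0 on vorinostat arrays. Over all genes 10.3%, 9.54% and 6.93% were called lower on solvent arrays in this order, and 12.2%, 7.08% and 4.32% on vorinostat arrays. The part of the cell cycle genes in the members' changes was not tested.

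Without drug and in normoxia, most members differed between lines, as did most genes. In PC-3, 15 of the 26 were lower and 6 higher than in DU145 (all genes 62.3% called, 31.3% lower). In 22Rv1, 7 were lower and 8 higher than in DU145 (64.8%, 30.4% lower), and 13 were higher and 5 lower than in PC-3 (68.4%, 36.4% higher). Arrays of the 2 lines did not overlap for 21, 18 and 18 members in this order, against 62.9%, 69.7% and 72.1% of all genes. The median difference was -0.57 for PC-3 against DU145 over the members and -0.0077 over all genes.

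UBE2T had the widest difference between 2 lines among the members. Its solvent arrays in normoxia, at 8.97, 8.98 and 9.26 in PC-3, lay below those of DU145 and 22Rv1 given above, and 22Rv1 was higher than DU145 by 1.17 ± 0.11, adjusted p = 6.16e-11, PC-3 lower than DU145 (-1.69 ± 0.11, adjusted p = 1.86e-14) and 22Rv1 higher than PC-3 by 2.85 ± 0.11, adjusted p = 1.98e-20 (limma). FANCG in DU145 was at 9.73, 9.94 and 10.18, overlapping with 22Rv1 and apart from PC-3, with -1.99 ± 0.17, adjusted p = 8.36e-12 for PC-3 minus DU145 and 1.89 ± 0.17, adjusted p = 1.8e-11 for 22Rv1 minus PC-3 (limma). FANCB was above background on 3 of 3 such arrays in PC-3, at 6.85, 7.0 and 7.26, and on 0 of 3 in DU145 and in 22Rv1, where it was not well above background. A bound from the lowest signal above background puts it at least 2.98-fold higher in PC-3 than in DU145 and at least 3.37-fold higher than in 22Rv1. The probe was above background on 12 arrays of PC-3, 2 of DU145 and 0 of 22Rv1, so it passed the filter only through the line where it is high, and these values are a description with no test.

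MUS81 and FANCE were the members furthest below DU145 in 22Rv1. MUS81 stood at 8.61, 8.67 and 9.03 in DU145, 8.03, 8.26 and 8.26 in PC-3 and 7.12, 7.25 and 7.26 in 22Rv1, which do not overlap, with -1.56 ± 0.14, adjusted p = 3.57e-11 for 22Rv1 minus DU145 and -0.58 ± 0.14, adjusted p = 0.000621 for PC-3 minus DU145 (limma). FANCE stood at 8.90, 9.09 and 9.21 in DU145, above the 22Rv1 and PC-3 levels given above, with -1.45 ± 0.12, adjusted p = 3.98e-12 for 22Rv1 minus DU145 (limma). BRCA1 was lower in PC-3 than in DU145 (-1.44 ± 0.14) and in 22Rv1 it was higher than in PC-3 by 1.56 ± 0.14. FANCC and GEN1 were above background on 0 of the 3 PC-3 arrays, and in PC-3 FANCC was at least 1.27-fold lower and GEN1 at least 1.43-fold lower than in DU145. FANCC was also at least 1.82-fold lower there than in 22Rv1. Both passed the filter only through DU145 and 22Rv1, so these bounds too are descriptions, and the counts between lines include all 3 such genes.

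**Figure D4:**
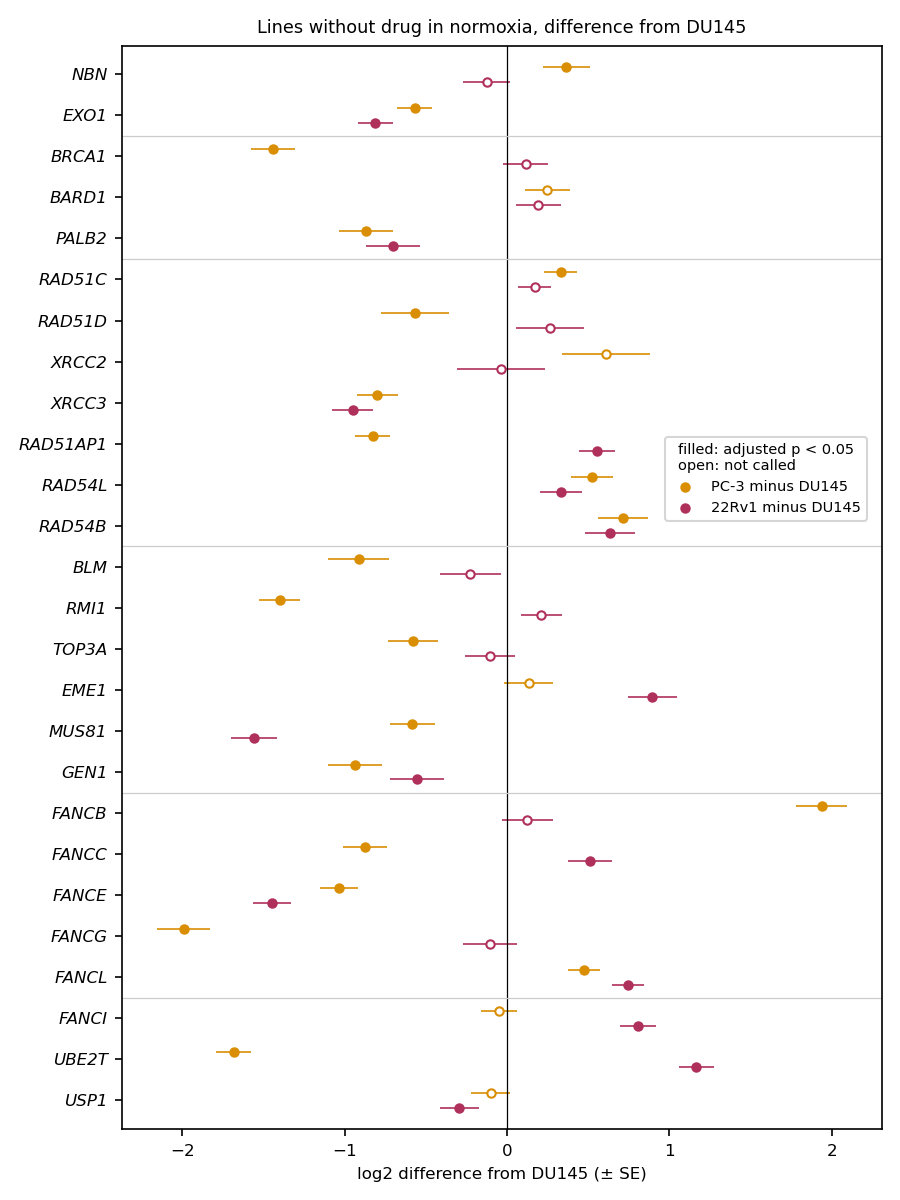
Log2 difference from DU145 (horizontal axis, bars ± SE) of the 26 genes on solvent arrays in normoxia, for PC-3 and for 22Rv1, with filled points for an adjusted p under 0.05. UBE2T lies at -1.69 in PC-3 and 1.17 in 22Rv1, and the PC-3 points of FANCB, FANCC and GEN1 are measured differences from or to a group not above background.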

How the data were processed

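The intensity values used are the authors' average bead signals on a linear scale, without normalization per the file headers. A detection p-value stands beside each signal, per the file headers. The submitters' processing notes name BeadStudio 3.1.3.0. The deposited processed values, an intensity on the linear scale, served as an alternative. Their normalization is not given in the sources used here. The signals were background corrected and quantile normalized on the log2 scale with neqc in limma 3.58.1 (R 4.3.3), offset 16. Probe symbols came from the platform annotation, updated through Entrez ID (of 47323 probes, 30113 carry a single symbol, 8 several and 17202 none). A probe was kept with a detection p below 0.01 on at least 3 of 36 arrays, and each gene was read from its kept probe of highest mean level. For 11 of the 26 members more than 1 probe passed.

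The 12 group means of 12353 genes were estimated jointly in limma, with Benjamini-Hochberg adjustment per comparison and calls at 0.05, and tested on simulated data. Signal over background and 3 arrays per group limit precision. No 2 arrays hold identical values (0 pairs), and 0 columns of sample values were left unused. A bound for a gene not above background uses the lowest signal above background of each array. Sequences are RefSeq's (GRCh38.p14). Figures were drawn with matplotlib 3.10.9.

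The members and lists were chosen with earlier results of these data known. Array values are given, by rule, for the 5 largest called drug effects and 3 largest called hypoxia effects per line, the 3 largest called differences in drug effect between 22Rv1 and DU145 and in level between each pair of lines, and all genes with opposite calls. Alternatives covered the authors' processed values, median scaling, cyclic loess, the filter, the probe rule, the arrays fitted, array weights, a mean-variance trend, a replicate block and each array left out. A block for slides was not run, since the headers name none (0).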

Additional observations from a re-analysis of the deposited data

Results flagged for a closer look

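These results differed between lines or between oxygen levels. The drug effect differed between 22Rv1 and DU145 for 17 of 26 members, against 39.5% of all genes, tested as the difference itself in limma. It was lower in 22Rv1 for EXO1 (-1.63), BLM (-1.32), EME1 (-1.22), RAD51C (-1.01), FANCL (-0.93) and UBE2T (-0.81). Between PC-3 and DU145 it differed for 5, against 31.0% of all genes. These 5 were RAD51C (-0.62), TOP3A (-0.55), UBE2T (-0.30), RAD54L (0.54) and MUS81 (0.38). Between 22Rv1 and PC-3 it differed for 14, against 28.2% of all genes, with EXO1 (-1.74), XRCC3 (-1.08) and RAD54L (-1.04) furthest apart. The 14 include FANCC, which was not above background on any PC-3 array. Within 22Rv1, the fall under vorinostat was larger in hypoxia for EXO1 (difference -0.97) and XRCC3 (-0.80), against 0.729% of all genes called. Neither difference was called on the authors' processed values. XRCC3 was above background on 2 of the 3 hypoxic vorinostat arrays.

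For the hypoxia effect, a few members had all arrays higher in one line and all lower in another, and this difference between lines was not tested. Within a line, normoxic and hypoxic arrays did not overlap for 27.9% to 45.1% of all genes on solvent arrays. On vorinostat arrays this share was 24.6% to 43.9%. How many of all genes moved in such opposite ways was not counted. On solvent arrays RMI1 had changes of 0.30 in DU145, 0.23 in PC-3 and -0.21 in 22Rv1, none of them called. On vorinostat arrays EXO1 had 0.36 in DU145, -0.29 in PC-3 and -1.60 in 22Rv1. FANCL had 0.46, -0.30 and -0.90 in the same order, and BLM had 0.43, -0.67 and -0.98. XRCC3 had 0.20 in DU145 and -1.31 in 22Rv1. Of the 3 hypoxic vorinostat arrays in 22Rv1, BLM was above background on 1 and XRCC3 on 2, and BLM was on 2 of 3 in PC-3. Groups of 3 arrays were not searched for single deviating arrays.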

How the results depend on the processing

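Counts of members called for vorinostat in each line and for the lines without drug stayed within 1.5 times their value under every alternative run. Of 186 calls of a member in a comparison, 142 held under all 46 alternatives, 44 were lost under at least 1 and 0 changed direction. Further probes of a gene read on their own are not among these 46. Some of them gave another call or the opposite sign, as given with the genes above. Of the uncalled values named, FANCI in DU145 became called under 7 of 46 alternatives, EXO1 in DU145 under 4 and BARD1 in 22Rv1 under 3. For hypoxia in DU145 on solvent arrays the count of 5 became 8 (2 higher, 6 lower) on the authors' processed values and 2 with DU145 fitted alone. On vorinostat arrays the PC-3 count of 6 became 2 with PC-3 fitted alone. The count of 2 for the drug effect between oxygen levels in 22Rv1 became 0 on the authors' processed values, 1 with median scaling and 1 with 22Rv1 fitted alone. The cause was not tested. Leaving out single arrays gave 2 to 6 for hypoxia in DU145 with solvent, 1 to 4 with vorinostat, 2 to 7 in PC-3 with vorinostat, 3 to 6 for the drug effect in PC-3 against DU145, and 1 to 2 for the effect between oxygen levels in 22Rv1.

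The lowest correlation between the deviations of same-numbered arrays was -0.0319 in DU145, 0.0216 in PC-3 and -0.0125 in 22Rv1. It was thus below 0 in DU145 and 22Rv1, and in PC-3 every such pair was above 0. The study's arrays were not treated as paired, which these values do not settle, least of all for PC-3. The mean same-number correlation was nevertheless above 0 for each number (0.1176 to 0.2064 in DU145, 0.2251 to 0.3158 in PC-3, 0.0206 to 0.0696 in 22Rv1). This is a hint from the data and not from the labels that equal numbers share something. Each different-number mean was below 0. Deviations from a group mean sum to 0 within the group, so these values are tied to the same-number ones and are no separate hint. With a replicate block the DU145 counts for hypoxia became 8 on solvent arrays and 6 on vorinostat arrays, and other counts stayed within 1.5 times.

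Uncalled values near 0 changed sign. FANCL in PC-3 was -0.0387 with median scaling. BLM in DU145 was 0.0069 and RAD51C in PC-3 0.0002 with cyclic loess. XRCC2 was 0.0167 in PC-3 and -0.0176 in 22Rv1 with the mean of its probes, and BARD1 in PC-3 was 0.0051 with array weights. Without single arrays BLM in DU145 ranged from -0.0860 to 0.0183, RAD51C in PC-3 from -0.1017 to 0.0028, BARD1 in PC-3 from -0.1139 to 0.0338, FANCL in PC-3 from -0.0226 to 0.0484 and XRCC2 in PC-3 from -0.2828 to 0.0315.

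Median scaling moved the median of all genes to -0.105 for PC-3 against DU145 without drug. It moved the share of higher calls over all genes from 42.8% to 53.7% for the drug effect in PC-3 minus DU145 and from 52.1% to 41.9% in 22Rv1 minus PC-3. Cyclic loess moved it from 43.5% to 54.2% for hypoxia in PC-3 with solvent. For the PC-3 drug effect between oxygen levels it was 14.3% (of 7 genes called), 34.5% on the authors' processed values, 43.5% with a replicate block and 0% with median scaling. Signal over background limits GEN1, FANCB and FANCC, which were above background on no array of at least 1 group.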
